A study of Drosophila melanogaster with 4 samples.

Results

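Long stretches of the Drosophila melanogaster chromosome arms without a cluster of H4K8ac, the acetylation of histone H4 at lysine 8, were described here in larvae at the third instar. A long gap was a stretch of at least 30000 bp between neighbouring clusters, or between the last cluster and the end of the arm sequence, on arms 2L, 2R, 3L, 3R and X in the list the authors deposited for the whole series. Of the 9891 gaps on these arms, 604 met the rule, which is 6.11% of them. Over all 14 sequences of the list there were 9923 gaps. The series holds 4 libraries from larvae of the wild-type strain Oregon-R, of which 2 are replicate H4K8ac ChIPs and 2 are input DNA. No mutant, treatment or other stage was included, whole larvae were the source, and the antibody was a rabbit polyclonal against an acetylated peptide of human histone H4, per the labels. Enriched stretches, called clusters here, were listed for each ChIP replicate and for the series as a whole. No list of an input library was used here. The long gaps were chosen by the positions of the series-wide clusters, so their lengths and places in that list are a description and no test was made on them.

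Acetylation of lysines in the tail of histone H4 is laid down by histone acetyltransferases and removed by deacetylases, and proteins with bromodomains can read it. It is known as a feature of open chromatin around transcribed genes. Silent genes away from the centromere and the repeat-rich heterochromatin beside it are known for low histone acetylation. Because each library came from whole larvae, a mark in few cells and a weak mark in many cells cannot be told apart, and a gap means that no cluster was called in the mixture. The positions follow FlyBase release 5, per the file headers. The gene table used here follows release 6, so no gene or sequence is given for any gap. The 3 lists hold no read counts and no measure of which bases reads could reach, so the depth behind them is unknown here. Whether unreachable sequence enlarges some gaps was not tested.

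Long gaps were a small part of all gaps and took up a large part of the arms. Together they spanned 45.5 Mb, which is 38.2% of the 119 Mb of the 5 arms and 53.5% of all their cluster-free bases. The other 9287 gaps took up 33.2% and the clusters 28.5%. The median long gap was 52.3 kb long, with quartiles of 38.3 and 81.1 kb. The shortest gaps held the most members and the middle classes the most bases. Between 30 and 50 kb there were 277 long gaps (45.9% of them, 10.6 Mb), between 50 and 100 kb 209 (13.9 Mb), between 100 and 200 kb 96 (13.9 Mb) and at 200 kb or more 22 (3.64% of them, 7.18 Mb). The limit cut through a continuous range of lengths. Just inside it lay gaps of 30029 bp on 3L (4901137 to 4931165), 30037 bp on the X (17643199 to 17673235) and 30097 bp on 3R (9440859 to 9470955). Just outside it lay gaps of 29983 bp on 3R (12475045 to 12505027), 29947 bp on the X (21000341 to 21030287) and 29937 bp on 3R (13821293 to 13851229).

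The series-wide list held 9889 clusters on the 5 arms, against 5688 in replicate 1 and 5472 in replicate 2, and both replicate lists held more and longer gaps of this kind. By the same rule replicate 1 had 817 long gaps (14.4% of its gaps) and replicate 2 had 833 (15.2%). They covered 65.7% and 67.5% of the arms, or 66.6% ± 1.28 (SD, n = 2). The median long gap was 64.0 kb in replicate 1 and 64.1 kb in replicate 2. The labels do not say that the replicates are from different batches of larvae, and the spread between them may be technical. The replicates placed most of their long gaps alike, with 72.2 Mb in common, which is 92.3% of the bases in replicate 1 and 89.8% of those in replicate 2. Series-wide long gaps lay almost wholly inside long gaps of the replicates (99.9% and 99.8% of their bases). They made up 58.1% of the long-gap bases of replicate 1 and 56.5% of those of replicate 2, so the remaining bases of the replicates' long gaps held series-wide clusters or shorter series-wide gaps.

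**Figure D1:**
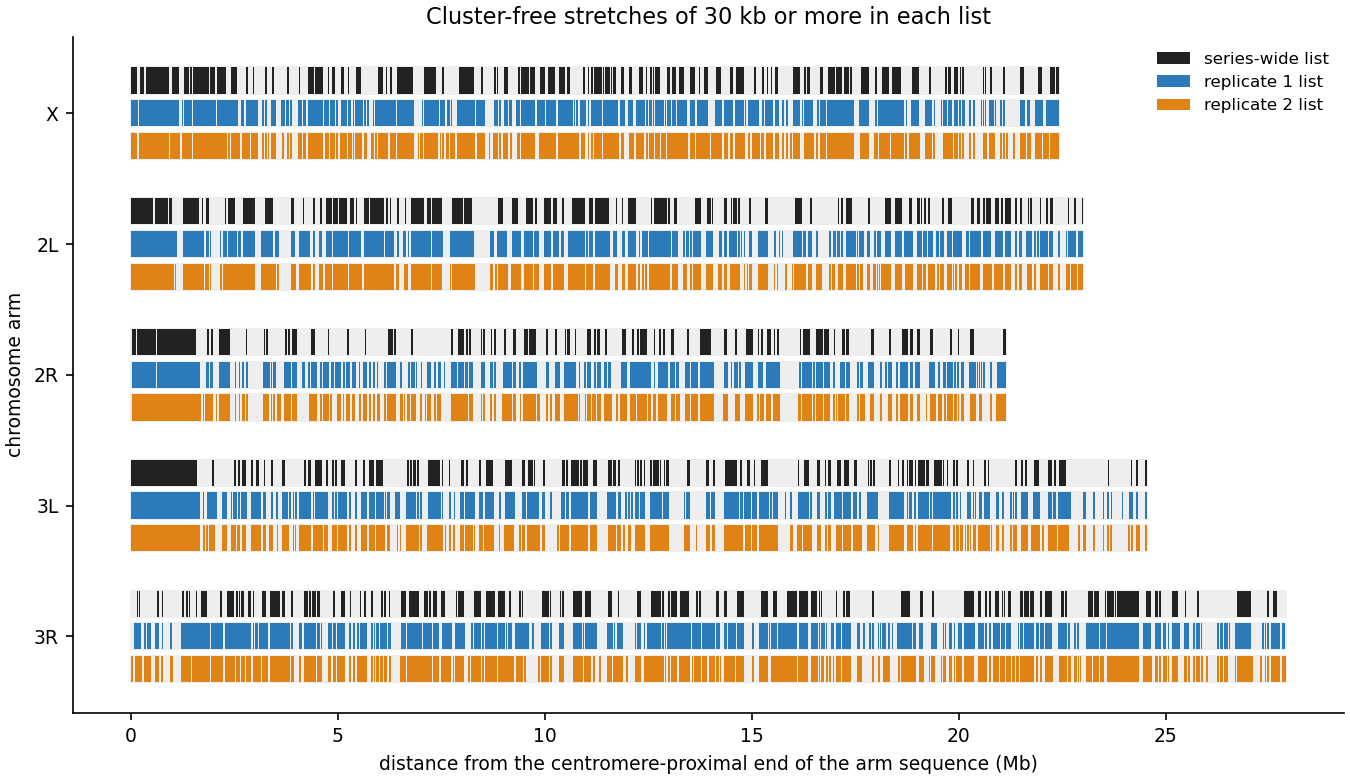
Long gaps (coloured blocks) along each arm (grey), drawn by distance in Mb from the centromere-proximal end of the arm sequence, for the series-wide list and the lists of both replicates. The proximal ends of 2R and 3L are nearly filled by blocks in all 3 lists, and that of 3R is not.

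The X had the largest share of its sequence in long gaps, and 2R the smallest. Long gaps covered 44.6% of the X, against 41.6% of 2L, 36.7% of 3R, 36.4% of 3L and 32.0% of 2R. They numbered 137 on the X, 115 on 2L, 143 on 3R, 114 on 3L and 95 on 2R. Per Mb this is 6.11 on the X, against 5.12 on 3R, 5.00 on 2L, 4.64 on 3L and 4.49 on 2R. Their median length was 53.3 kb on the X, within the range of 49.0 kb (2R) to 56.7 kb (2L) on the autosomal arms. Gaps under the limit took up 32.2% of the X, against 30.9% (3L) to 36.1% (2R) of the autosomal arms.

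The X also ranked highest in both replicate lists at the same limit. Long gaps covered 73.4% of the X in replicate 1 and 74.8% in replicate 2, or 74.1% ± 1.00 (SD, n = 2). The values were 67.4% and 69.0% for 2L, 67.1% and 68.4% for 3R, 61.3% and 63.2% for 3L, and 59.2% and 62.2% for 2R. The lower X value exceeded the higher value of every autosomal arm, whereas the ranges of 2L and 3R overlapped, as did those of 3L and 2R. The share on the X divided by the mean share of the 4 autosomal arms was 1.22 in the series-wide list, 1.15 in replicate 1 and 1.14 in replicate 2. Arms are not replicates, and no test across them was run on the 2 ChIP samples.

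The first place of the X held for a range of limits. It was lost at the longest gaps and when clusters with low scores were left out. In the series-wide list the X ranked first at every limit tried from 10 to 50 kb and second, after 2L, at 75 and 100 kb. At 150 and 200 kb its rank was 4 of the 5 arms, and 3 without the gap at the proximal end of 3L. Gaps of 200 kb or more covered 3.66% of the X (3 gaps), against 10.0% of 2L (9 gaps), 7.73% of 3L (2 gaps), 6.10% of 2R (4 gaps) and 3.11% of 3R (4 gaps). The ratio of the X to the autosomal mean was 0.897 at 150 kb and 0.542 at 200 kb, and without that gap of 3L it was 1.04 and 0.715. In replicate 1 the X ranked first up to 150 kb and second at 200 kb, and in replicate 2 first up to 75 kb, second at 100 and 150 kb and with rank 3 at 200 kb. At the 30 kb limit the X had the smallest share of the 5 arms when clusters with scores below the median of the list were left out. This gave the X 51.9%, 2L 62.0%, 3R 60.9%, 3L 57.9% and 2R 52.8%, with a ratio of 0.889. Clusters of the X had higher scores than those of the autosomal arms: among clusters that border no long gap, the median score was 0.476 on the X, against 0.414 (3R) to 0.425 (2R).

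**Figure D2:**
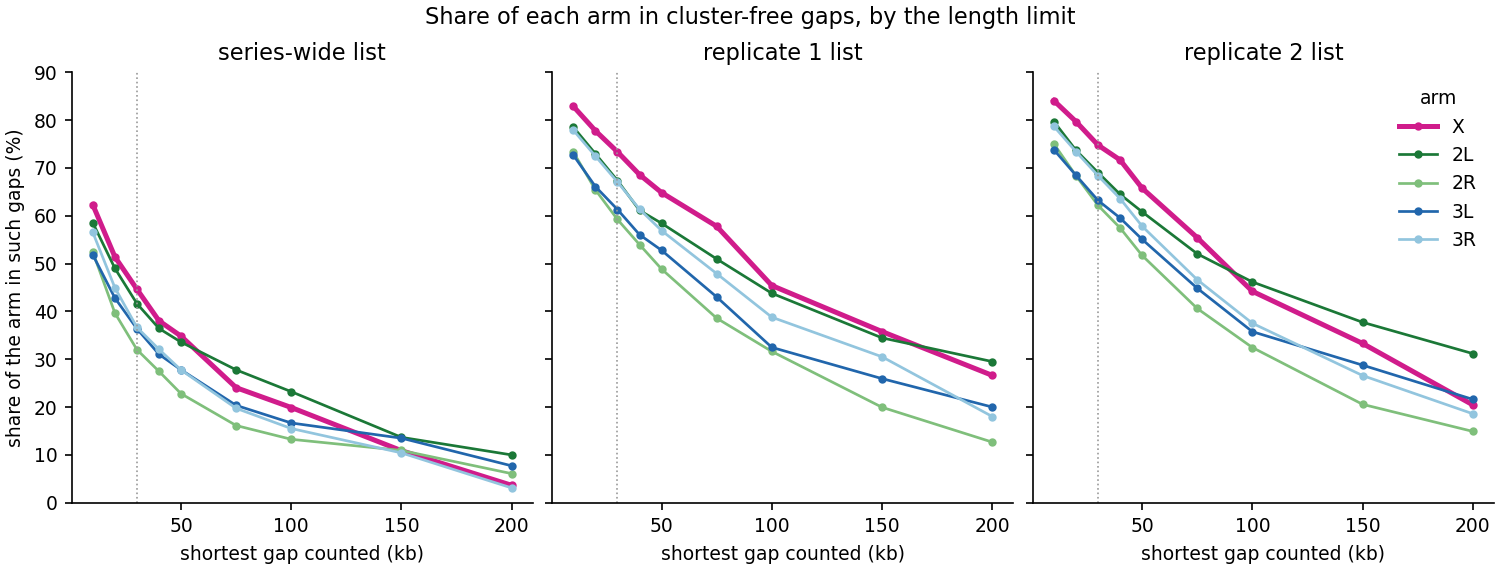
Share of each arm (%) in cluster-free gaps at or above the length on the x axis (kb), for the series-wide list and both replicates, with a dotted line at 30 kb. The X (thick line) lies highest at 30 kb in all 3 panels, and 2L lies highest at 200 kb.

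On 3L 1 gap weighed heavily. The long gaps other than the one at its proximal end covered 29.9% of the full length of 3L. The bases of that gap still counted in this length, so the value is not ranked against the other arms. With this value for 3L, the ratio of the X to the autosomal mean was 1.27.

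Within 2 Mb of the proximal end of the arm sequence, long gaps took up a larger share than in the rest on 4 arms. On 3R they took up a smaller share over these 2 Mb. The end of an arm sequence is not the centromere, and how far each sequence stops short of it is unknown here. Some heterochromatic and unplaced sequences are listed apart from the arms, and how much heterochromatin the arm sequences themselves hold is unknown here. Whether the contrast of 3R with the other arms reflects where each sequence stops was not tested. In the 2 Mb at the proximal end, long gaps covered 82.0% of 3L, against 32.3% of the rest of that arm. The same shares were 81.4% against 26.9% on 2R, 80.8% against 41.1% on the X and 69.5% against 39.0% on 2L. On 3R the proximal 2 Mb were covered over 22.8%, against 37.7% of the rest. Both replicates had this arrangement. Their proximal shares ran from 85.8% (2L) to 93.9% (X) in replicate 1 and from 85.5% (2L) to 95.0% (2R) in replicate 2 on the 4 arms, all above the rest of the same arm. On 3R the proximal share was 61.6% against 67.5% of the rest in replicate 1, and 65.1% against 68.6% in replicate 2. The low share of 3R did not extend to the window from 2 to 4 Mb. There the share was 47.4% in the series-wide list, 82.7% in replicate 1 and 83.8% in replicate 2. The contrast of 3R is therefore described for the 2 Mb stretch only. The proximal stretches nonetheless held only 6.73 Mb, or 14.8%, of all long-gap bases, so most long gaps lay along the body of the arms.

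**Figure D3:**
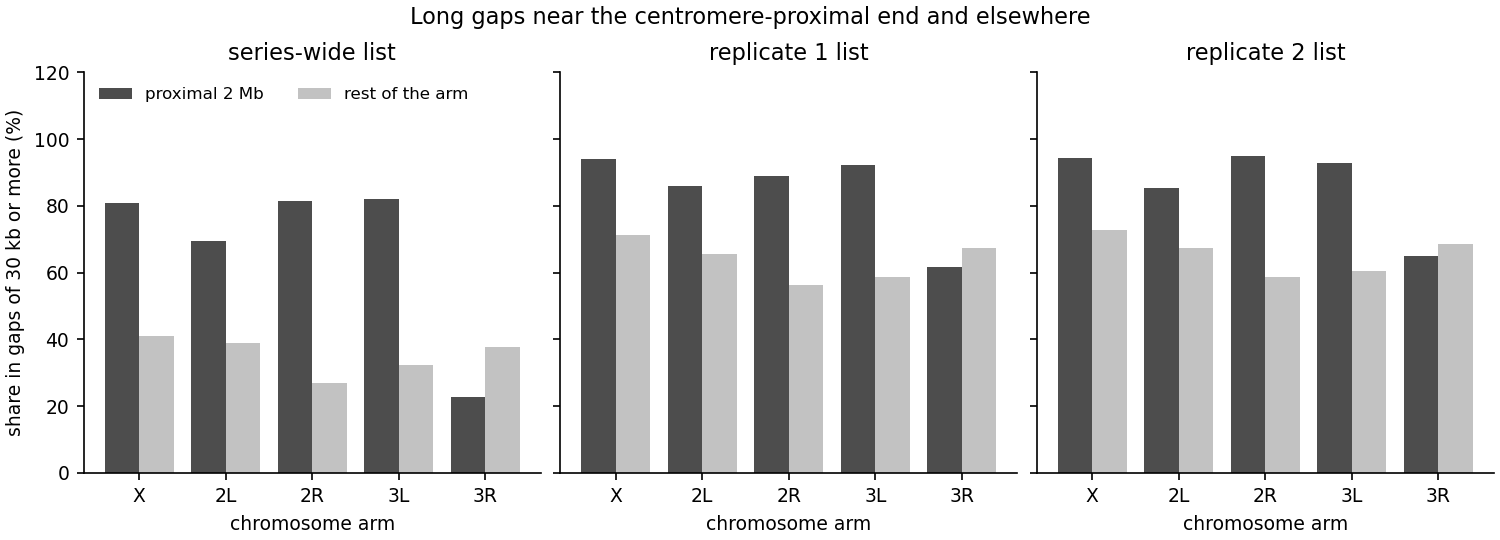
Share (%) in gaps of 30 kb or more in the 2 Mb at the proximal end (dark bars) and in the rest of the arm (light bars), for each arm and list. The dark bar is the higher one on X, 2L, 2R and 3L and the lower one on 3R in all 3 lists.

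Long gaps were spread over the whole of each arm with uneven density. Of the 57 full windows of 2 Mb, counted from the proximal end and including the first of each arm, none was free of long gaps. The covered share of a window had a median of 37.0% and ran from 11.0% to 82.0%. It reached 50% in 8 windows and was under 20% in 6. The 4 highest windows were the first ones of 3L, 2R, X and 2L from the proximal end. The next highest lay 6 to 8 Mb from the proximal end on 2L (58.0%). The lowest lay 4 to 6 Mb from the proximal end on 2R (11.0%), 18 to 20 Mb on 3R (15.4%), 22 to 24 Mb on 3L (17.5%) and 6 to 8 Mb on 2R (17.6%). At the distal ends every arm lay below that median. In the 2 Mb nearest the telomere the share was 28.7% on 2L, 25.8% on the X, 23.8% on 3R, 15.5% on 2R and 11.1% on 3L.

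At the ends of the arm sequences, 6 of the 10 terminal stretches were long enough to count. At the distal ends these were the first 79.7 kb of the X, the first 52.4 kb of 3L, the first 36.6 kb of 2L and the last 30.4 kb of 2R, while the last cluster of 3R ended 10.9 kb before the end of that arm (10.9 kb in replicate 1 and 88.2 kb in replicate 2). The replicates had longer stretches at these places, of 86.5 and 221.6 kb for the X, 54.0 and 54.8 kb for 3L, 74.5 and 82.6 kb for 2L and 117 and 171 kb for 2R in replicates 1 and 2. At the proximal ends the arms differed widely. The terminal stretch was 1600.2 kb on 3L and 42.7 kb on 2L, against 17.0 kb on 2R, 6.93 kb on the X and 395 bp on 3R. On 2L the replicates had far longer stretches than the series-wide list, of 275 and 864 kb. On 2R all 3 lists placed a cluster about as close to the proximal end, at 17.1 and 17.2 kb in replicates 1 and 2. On the X the replicates disagreed, with 7.05 kb in replicate 1 and 158 kb in replicate 2.

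The longest gap far exceeded any other. It ran from 22943383 to the end of 3L at 24543557, and was free of clusters in both replicates, where the stretch measured 1600.3 and 1600.4 kb. All 3 lists thus ended the last cluster of 3L at nearly the same place, a cluster of 2797 bp in the series-wide list. The next gaps were much shorter and lay at the proximal ends of other arms. On 2R the second longest gap spanned 419 kb, from 1147505 to 1566635, and met stretches of 588 kb in replicate 1 and 587 kb in replicate 2. The third longest, 387 kb on the X from 21491225 to 21878605, lay in stretches of 630.0 and 542 kb. A gap on 2R, from 618581 to 977269, lay in a stretch of nearly the same length in replicate 1 (358689 bp for the gap and 358773 bp for the stretch) and in a far longer stretch of replicate 2 (959 kb).

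Of the other 6 among the 10 longest, 4 lay well inside an arm. On 2L a gap of 313 kb (15937513 to 16250549) lay 6.76 Mb from the proximal end, one of 308 kb (16929349 to 17236925) lay 5.77 Mb from it, and one of 271 kb (14983553 to 15254981) lay 7.76 Mb from it. In the replicates these 3 places were free over 335 and 397 kb, 320 and 359 kb, and 280 and 574 kb. On 3L a gap of 298 kb (17070893 to 17368917) lay 7.17 Mb from the end, in stretches of 332 and 376 kb. The remaining pair was proximal, with 295 kb on 2R (135811 to 431115) and 284 kb on 2L (22147079 to 22430629). They sat in stretches of 597 and 959 kb, and of 713 and 864 kb. The longest gap of 3R was shorter than those of the other arms, at 240 kb (3366997 to 3606845), 3.37 Mb from the proximal end, in stretches of 250 and 492 kb. None of these 11 gaps held a whole replicate cluster, and the only replicate bases in them were 4 to 29 bp at a border of 3 of the gaps.

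Neighbouring long gaps often lay beside each other, parted by a lone cluster or a few. When long gaps with at most 10 kb between them were joined, the 604 gaps formed 478 territories, of which 98 held more than 1 gap. These 98 held 224 of the long gaps (37.1%) and spanned 18.4 Mb, with a median of 140.0 kb. Pairs made up 78 of them, triplets 15, and 5 held 4 gaps or more. Territories of 200 kb or more numbered 41 and spanned 14.2 Mb. They covered 17.9% of 2L, against 12.8% of the X, 10.8% of 3R, 9.91% of 3L and 8.50% of 2R. The values of 3L and 2R rest mostly on 1 proximal territory each. It spanned 1600.2 kb of the 2.43 Mb on 3L and 1547.4 kb of the 1.80 Mb on 2R. Joining hardly changed the covered share of the arms, at 38.5% for territories and 38.2% for long gaps, because the stretches between joined gaps were short.

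On the X, 70 of the 137 long gaps (51.1%) lay in territories of more than 1 gap. On the autosomal arms the share was 38.3% on 2L, 36.4% on 3R, 35.8% on 2R and 21.1% on 3L. In the replicate lists, joined by the same rule, the X was again highest, at 61.5% and 60.9%. The autosomal arms ran from 46.3% (2L) to 54.1% (3L) in replicate 1 and from 51.0% (2L) to 57.9% (3R) in replicate 2. The low share of 3L in the series-wide list was not seen in replicate 1, where 3L had the highest autosomal share. Stretches between long gaps were short on the X. Their median was 53.6 kb there, against 67.4 kb (3R) to 96.7 kb (2R) on the autosomal arms. Of the 137 stretches of the X, 34 (24.8%) held a single cluster, against 17.7% over all 5 arms. The autosomal arms ran from 8.85% (3L) to 21.1% (2R). The X also had the most long gaps per Mb in the series-wide list, at 6.11 against 4.49 (2R) to 5.12 (3R). In replicate 1 it was second, at 7.18 after 7.24 on 3R, and in replicate 2 first, at 7.54. Whether the grouping and short stretches of the X exceed what its density of long gaps gives was not tested.

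The largest territories were proximal. After the terminal gap of 3L, which had no other long gap within 10 kb, came 1547.4 kb of 2R from 19241 to 1566635, made up of 7 long gaps. Only 6 series-wide clusters of 9576 bp in all broke it, and replicates 1 and 2 had 2 clusters each in it, covering 3843 and 1988 bp. On the X, 571 kb from 21491225 to 22061937 held 3 long gaps and 3 clusters, and the replicates had 1 and 2 clusters there. On 2L, 540.2 kb from 22471349 to the end of the arm at 23011544 held 4 long gaps and 3 clusters, and the replicates had 1 and 0. The fifth, 494 kb on 2L from 14761027 to 15254981, lay 7.76 Mb from the proximal end and held 4 long gaps. It contained 8 series-wide clusters covering 2.11% of its length, of which little was seen in the replicates, with 1 cluster in replicate 1 and 0 in replicate 2.

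Clusters inside the territories were short and rarely found in the replicate lists. There were 158 of them with a median length of 1234 bp, and the longest was 8.95 kb. The joining limit of 10 kb bars longer clusters from this class. Replicate 1 had a cluster at 27 of them (17.1%) and replicate 2 at 20 (12.7%), compared with 38.8% and 36.1% of all series-wide clusters of the arms. In all 120 (75.9%) met no cluster of either replicate, compared with 50.3% of all clusters. These comparisons were not matched for length. Clusters under 1301 bp made up 57.6% of those inside territories and 26.6% of all. At that length only 5.19% of the clusters bordering a long gap and 4.94% of the others met a replicate cluster.

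Replicate clusters covered a small share of the gaps as a whole. They covered 0.030% of the long-gap bases in replicate 1 and 0.047% in replicate 2, or 0.039% ± 0.012 (SD, n = 2). Of the bases of all gaps on the arms, they covered 0.134% in replicate 1 and 0.148% in replicate 2. Of the 604 long gaps, 480 (79.5%) had no base in a cluster of either replicate, 120 had some in 1 replicate and 4 in both. Replicate 1 touched 69 long gaps (11.4%) and replicate 2 touched 59 (9.77%), close to the 10.7% and 9.26% of gaps of any length. In most of these a replicate cluster only reached past the border, and the touched length was under 100 bp in 47 and 40 of them. These values do not bear independently on the gaps, since the series-wide list may share reads with the replicate lists.

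A few replicate clusters did lie wholly inside a long gap, 6 in replicate 1 and 13 in replicate 2. They were 1302 to 1596 bp long, close to the shortest replicate cluster of 1301 bp. Of the 13 in replicate 2, 7 were on the X, which held 137 of the 604 long gaps. All 6 in replicate 1 were on autosomal arms. The highest score among them, 1.18, belonged to a cluster of replicate 2 on the X at 14161526 to 14162849, in a long gap of 112 kb. The largest share of a long gap in replicate clusters was 4.56%, in a gap of 32.0 kb on the X (10704585 to 10736577) that held 1 cluster of replicate 2 and none of replicate 1. The next were gaps of 37.0 kb on 3R (23522173 to 23559185, 4.10%), 36.9 kb on the X (17143641 to 17180525, 4.05%), 39.3 kb on 2L (1305053 to 1344399, 3.49%) and 46.2 kb on the X (22015697 to 22061937, 3.11%). Each held a single cluster of replicate 2 and no base of a replicate 1 cluster.

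The longest cluster-free stretch of a replicate that met a long gap was usually much longer than the gap. A stretch counted when it shared any base with the gap, so it could lie mostly outside it. The same stretch could also count for several gaps. The replicate lists hold fewer clusters than the series-wide list, which leaves longer stretches between them. The gaps had a median of 52.3 kb, and the stretches that met them had medians of 129 kb in replicate 1 and 127 kb in replicate 2. The stretch was at least 2 times as long as the gap for 275 long gaps (45.5%) in replicate 1 and 287 (47.5%) in replicate 2. It matched the gap to within 1 kb for 24 and 13 of them. Few borders were shared with a replicate cluster. Of the 1202 borders formed by a cluster, 17.5% lay within 500 bp of the matching border of a replicate 1 cluster and 14.7% within 500 bp of one in replicate 2. For 56.5% and 60.3% the nearest such border was more than 10 kb away.

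**Figure D4:**
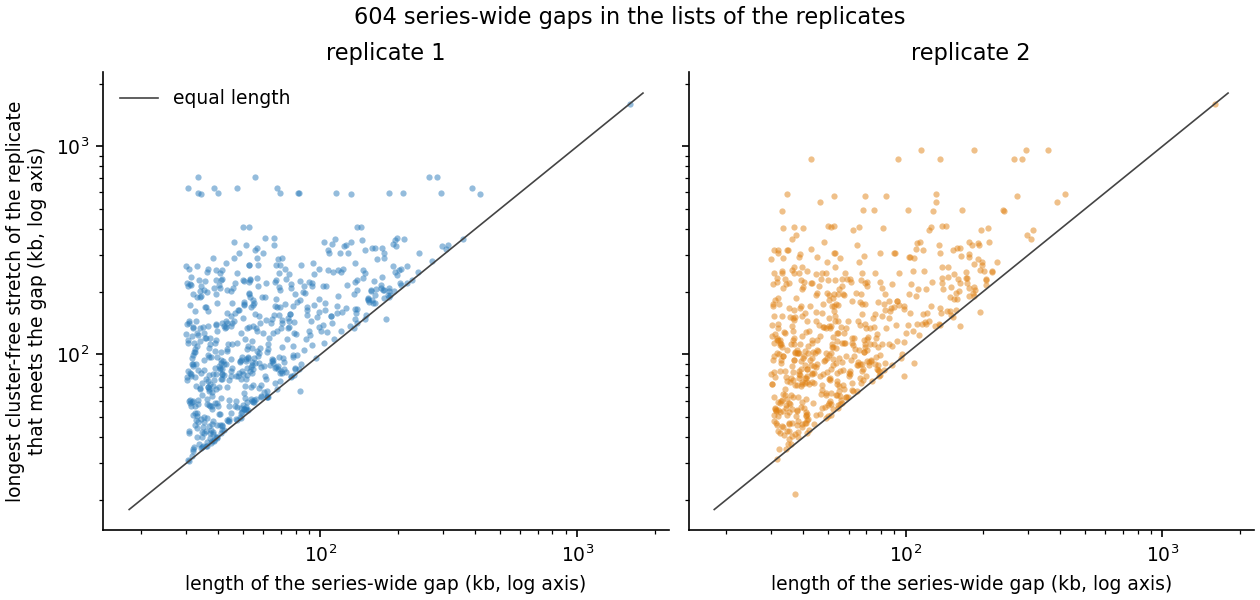
Length of each of the 604 series-wide long gaps (x axis, kb, log axis) against the longest cluster-free stretch of the replicate that meets it (y axis, kb, log axis), for both replicates. Points lie on or above the line of equal length for 600 gaps in replicate 1 and 595 in replicate 2.

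Clusters that border a long gap were shorter than the other clusters of the arms. There were 1097 of them, 11.1% of the 9889 clusters, and 105 bordered a long gap on both sides. Their median length was 1429 bp, with quartiles of 1145 and 2033 bp, against 1863 bp with quartiles of 1303 and 3368 bp for the other 8792. Clusters under 1301 bp, shorter than any replicate cluster, made up 40.4% of the bordering clusters and 24.9% of the others (26.6% of all). Clusters of 10 kb or more made up 2.46% of the bordering clusters (27) and 6.11% of the others (537), and 5.7% of all. The same held on every arm, with medians of 1396 (X) to 1452 bp (2L) for bordering clusters, against 1829 (2L) to 1875 bp (2R) for the others. Within each replicate list the bordering clusters were likewise shorter, at 1772 and 1729 bp, against 2054 and 2059 bp for the others. The 105 clusters with a long gap on both sides were the shortest class, with a median of 1223 bp.

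The median length of the bordering clusters varied little with the length of the gap. Clusters at gaps of 30 to 50 kb had a median of 1425 bp, at gaps of 50 to 100 kb 1431 bp, at gaps of 100 to 200 kb 1365 bp and at gaps of 200 kb or more 1429 bp. Over the same 4 classes their median score ran from 0.409 (200 kb or more) to 0.433 (50 to 100 kb). The share found in neither replicate ran from 62.8% (200 kb or more, 43 clusters) to 72.7% (100 to 200 kb, 187 clusters). Outward of clusters that border 1 long gap, the next gap had a median of 3587 bp (991 gaps), against 1715 bp for all gaps under the limit.

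Scores of the bordering clusters lay close to those of the others over the whole list. The authors' score, a value of unknown scale, had a median of 0.423 in bordering clusters and 0.428 in the others. The difference of -0.0042 changed sign, to 0.0050, when only gaps of 50 kb or more were counted. In replicate 1 the medians were 0.579 in bordering clusters and 0.611 in the others, a difference of -0.032, and in replicate 2 they were 0.614 and 0.640, a difference of -0.026. By length class the sign of the difference varied. From 1301 to 1999 bp both medians were 0.380. From 2000 to 4999 bp the median was 0.442 in bordering and 0.446 in other clusters, and from 5000 to 9999 bp it was 0.489 in bordering and 0.519 in other clusters. Bordering clusters had the higher median under 1301 bp, 0.434 against 0.417, and at 10 kb or more, 0.626 against 0.614.

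Most bordering clusters met no cluster of either replicate. Replicate 1 had a cluster at 279 (25.4%) of them and replicate 2 at 241 (22.0%), against 40.5% and 37.9% of the other clusters and 38.8% and 36.1% of all. In neither replicate were 723 bordering clusters (65.9%), against 48.4% of the others and 50.3% of all. Short clusters of either class seldom met a replicate cluster, and the classes lay closer together at like length. Under 1301 bp, 5.19% of the bordering and 4.94% of the other clusters met a cluster of either replicate. From 1301 to 1999 bp the shares were 32.8% of the bordering and 37.7% of the other clusters, and from 2000 to 4999 bp 74.1% and 80.7%. At 5000 to 9999 bp all 50 bordering clusters and 99.0% of the 884 others did so.

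**Figure D5:**
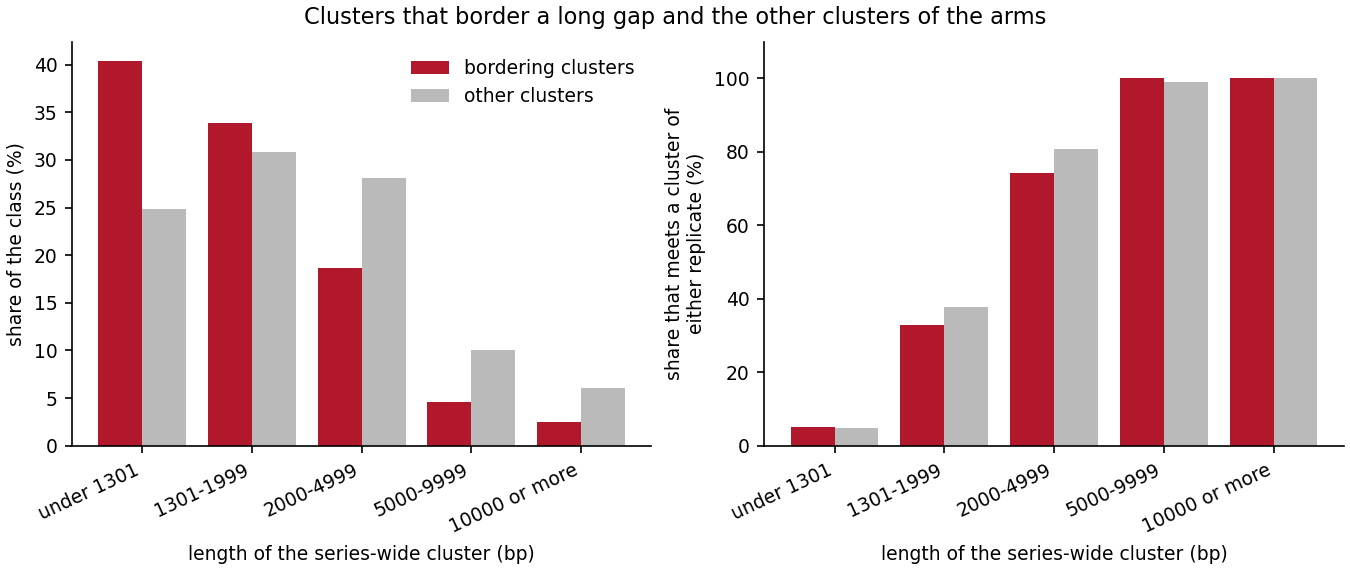
Series-wide clusters that border a long gap (red) and other clusters of the arms (grey) by length class in bp: the share of each class of clusters (left, %) and the share that meets a cluster of either replicate (right, %). Clusters under 1301 bp make up 40.4% of the bordering and 24.9% of the other clusters, and at 5000 bp or more nearly all clusters of both kinds meet a replicate cluster.

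Some long gaps were bordered by a cluster of 10 kb or more. Such clusters were rarer among the bordering clusters (2.46%) than among the others (6.11%). The longest bordering cluster, 78.3 kb on 2R from 2389306 to 2467632 with a score of 0.856, began where a gap of 217 kb (2172373 to 2389305) ended. The other side of that gap was formed by a cluster of 1027 bp with a score of 1.34 that neither replicate had. The next longest were 42.6 kb on 2L (11013606 to 11056234), 36.4 kb on 3R (14809444 to 14845892), 28.4 kb on 3R (24716114 to 24744496) and 25.4 kb on 3L (4335668 to 4361080), all found in both replicates. The 2 highest scores among the bordering clusters belonged to short ones, of 1115 bp on the X (14451750 to 14452864, score 2.07) and 1001 bp on 3R (8745852 to 8746852, score 1.90), each with a long gap on both sides and no cluster of either replicate. These bordering clusters were chosen after their values were seen.

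Between the long gaps lay 603 stretches with 73.5 Mb, in which clusters covered 46.2% of the bases. Their median length was 67.7 kb, and 107 held a single cluster. The longest stretch without a long gap ran over 993 kb of 3L, from 948890 to 1942170, and held 130 clusters that covered 51.3% of it. Next came 919 kb of 3R (25804590 to 26723930) and 917 kb of 2R (6808758 to 7726198), with 122 and 132 clusters. These stretches were also chosen after their values were seen. Chromosome 4 and the 8 heterochromatic and unplaced sequences consisted of long gaps almost throughout, at 96.9% and 99.9% of their bases, with 10 and 13 series-wide clusters.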

How the data were processed

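The H4K8ac ChIP-seq clusters were analysed from 3 lists, 1 for each of 2 ChIP replicates and 1 for the series. Alignment used Bowtie 0.12.7, per the submitters' processing notes, and positions follow FlyBase release 5, per the file headers. Not given in the sources used here are the cluster caller, its settings, the use of the inputs and any pooling behind the series-wide list. Each deposited cluster has an arm, its first and last base and the authors' score of unknown scale, used only to rank and describe clusters within a list. Read counts were not used here, so depth is unknown and no counting interval was made. Sets of samples were taken from the titles, and 0 columns held samples from outside the series.

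Gaps were computed in Python 3.11.15 with numpy 2.4.6 and pandas 2.3.3 from the positions and the arm lengths of the headers, and 3 overlapping pairs of series-wide clusters were treated as having no gap. The 604 long gaps came out identical with bedtools 2.31.1. On simulated lists, 440 of 440 planted long gaps were found with exact borders. Long gaps were joined into territories over at most 10 kb. The proximal end is the last base of 2L, 3L and X and the first base of 2R and 3R. A series-wide cluster met a replicate when they shared at least 1 base. With 1 antibody group, 2 replicates and gaps chosen from the readout, no test was run, and the SD beside a mean is that of 2 replicates. The members, limits and lists were chosen with earlier results of these data known. Named regions are the 10 longest gaps, the longest of each arm, the arm ends, the 5 longest territories, the gaps beside the limit and the 5 with the largest share in replicate clusters. Bordering clusters named for their length or score, the longest stretches between long gaps and the replicate 2 cluster inside a gap of the X were chosen after their values were seen. Alternatives were gap limits of 20 and 50 kb, clusters at or above the median score, clusters of at least 1301 bp, clusters met by a replicate, arm ends left out, each replicate alone, arms without the proximal 2 Mb, joining over 5 and 20 kb, and 50% coverage. Limits of 100, 150 and 200 kb and the arms without the terminal gap of 3L were added after seeing the data. Where that gap or the arm ends were left out, their bases still counted in the arm length. Ranks of the arms were also taken at limits of 10, 40 and 75 kb, which were not among the alternatives named above.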

Additional observations from a re-analysis of the deposited data

How the results depend on the processing

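Of the 52 alternative values for the main results, 20 stayed within 1 SD of the replicates or, for counts, within 1.5 times, 31 moved further and 1 changed sign. With a limit of 20 kb there were 959 long gaps over 45.6% of the arms, an X to autosome ratio of 1.17 and a score difference of bordering minus other clusters of -0.0089. With 50 kb there were 327 over 29.4%, the ratio was 1.24 and the score difference turned to 0.0050. Both follow in number and share from the limit itself. The ratio was 1.16 at 100 kb, 0.897 at 150 kb and 0.542 at 200 kb, and without the terminal gap of 3L it was 1.04 at 150 kb and 0.715 at 200 kb. Clusters at or above the median score gave 57.4% of the arms and a ratio of 0.889, clusters of at least 1301 bp 48.0% and 1.18, and clusters met by a replicate 58.8% and 1.16, where leaving out clusters can only enlarge the gaps. Without the arm ends the values were 36.7% and 1.27, and without the terminal gap of 3L 36.9% and 1.27. The list of 1 replicate alone gave 65.7% to 67.5% and a ratio of 1.14 to 1.15. Replicate clusters at or above the median score of their list covered 0.021% of the long-gap bases, against 0.039% for all, and 0.030% to 0.047% with either replicate alone. Among clusters of at least 1301 bp, the length difference of bordering minus other clusters was -489 bp, against -434 bp for all, and the score difference was -0.018. Of these longer bordering clusters 38.0% met a replicate cluster (mean of both replicates), against 23.7% for all. Of all bordering clusters 20.0% did so when at least 50% of the cluster had to be covered. The share met was 22.0% to 25.4% with either replicate alone. Territories numbered 497 and 433 when joined over 5 and 20 kb. For the remaining changes the cause was not tested. No paired analysis was possible because no test was run and the inputs, numbered like the ChIP samples, had no list in use here. Depth is unknown, so whether faint marks lie under the calling threshold inside the gaps was not tested.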

Other observations

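All 9912 series-wide clusters began and ended at even positions, whereas both ends were even in 23.7% of the replicate 1 clusters and 25.1% of the replicate 2 clusters. The series-wide list therefore places borders on a grid of 2 bp that the replicate lists do not use.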
